A study of Mus musculus with 5 samples.

Results

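A set of 10 genes that carry phosphate, sodium or chloride across cell membranes was followed in the mammary gland of mice that had just given birth, in 3 libraries described as Nfib-null and 2 from wild-type (WT) animals. The genes, 10 of the 22609 in the table, were chosen by symbol. They are the sodium-phosphate cotransporters Slc34a1, Slc34a2, Slc34a3, Slc20a1 and Slc20a2, the sodium-potassium-chloride cotransporter Slc12a2, the epithelial sodium channel subunits Scnn1a, Scnn1b and Scnn1g, and the chloride channel Cftr. All animals were of outbred stock, and whole glands without lymph nodes were taken on the day of birth, under 12 hours after delivery. Nfib encodes the DNA-binding transcription factor nuclear factor I/B. The column of the table used for Nfib-null glands is headed NfibFF-WC, a name that the labels do not explain. It was assigned by elimination, because the other column carries the name of the wild-type libraries. The labels give neither the promoter of any Cre nor the cells in which the gene was lost. Nfib itself was at 55.3 RPKM (reads per kilobase, normalised for sequencing depth) in Nfib-null, against 33.7 RPKM in WT, so the level of the targeted gene does not check that assignment.

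Milk is made by alveolar epithelial cells, whose apical membrane faces the milk and whose basolateral membrane faces the blood. Much of the phosphate of milk is held in casein micelles, and phosphate crosses membranes on cotransporters that use the sodium gradient. The SLC34 proteins (NaPi-IIa, NaPi-IIb and NaPi-IIc) sit in apical membranes, and the SLC20 proteins (PiT-1 and PiT-2) are found in most cell types. Milk is low in sodium and chloride, and the epithelial sodium channel ENaC, CFTR and the cotransporter NKCC1 (Slc12a2) move these ions in many epithelia.

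The values were the authors' group means, with 1 value per gene for each column, so that no spread between libraries, standard deviation or test could be given. A difference is described here by its size, as log2(scaled RPKM + 1) in Nfib-null minus WT, after the median-ratio scaling of both columns had taken out a median log2 ratio of 0.41. It is called higher or lower from 2-fold, and it has no replicate check. RPKM values are given as deposited. The depth of the libraries was estimated from the smallest steps between low values at about 22600000, 27200000 and 33100000 reads for the Nfib-null column and 15000000 and 17400000 for the WT column, of which the step at 22600000 was the least distinct. The 7 milk protein genes of the major caseins, Wap and Lalba held 24.8% of all RPKM in Nfib-null and 50.9% in WT. Reads from fewer cells of a type and from less RNA per cell cannot be told apart in whole tissue.

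The start regions of 4 of these genes are shown because Slc34a2 and Slc20a1 were the 2 members lower in the Nfib-null column, and because Scnn1b and Scnn1g lie next to each other on chromosome 7 and encode subunits of the same channel. Each runs 5′ to 3′ on the strand of the gene, from 250 bases before to 50 bases after the annotated start, as given by RefSeq for build GRCm38.p6. The intervals are chr5:53049103-53049402 for Slc34a2, chr2:129198523-129198822 for the upstream start of Slc20a1, chr7:121864788-121865087 for Scnn1b and chr7:121734229-121734528 for Scnn1g, all on the plus strand. Capitals mark the TATA box letters TATAAA or TATATA on that strand.
Slc34a2: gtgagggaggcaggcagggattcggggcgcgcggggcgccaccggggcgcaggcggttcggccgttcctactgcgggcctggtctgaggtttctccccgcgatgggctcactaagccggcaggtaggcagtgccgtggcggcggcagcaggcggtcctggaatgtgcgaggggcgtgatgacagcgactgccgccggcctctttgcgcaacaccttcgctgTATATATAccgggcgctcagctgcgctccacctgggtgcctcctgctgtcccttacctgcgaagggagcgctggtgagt
Slc20a1: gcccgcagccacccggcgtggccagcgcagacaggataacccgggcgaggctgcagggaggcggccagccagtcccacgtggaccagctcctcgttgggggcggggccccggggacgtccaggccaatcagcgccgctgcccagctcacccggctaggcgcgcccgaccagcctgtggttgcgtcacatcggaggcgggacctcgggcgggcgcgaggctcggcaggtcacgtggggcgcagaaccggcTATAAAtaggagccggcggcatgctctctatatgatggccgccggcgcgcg
Scnn1b: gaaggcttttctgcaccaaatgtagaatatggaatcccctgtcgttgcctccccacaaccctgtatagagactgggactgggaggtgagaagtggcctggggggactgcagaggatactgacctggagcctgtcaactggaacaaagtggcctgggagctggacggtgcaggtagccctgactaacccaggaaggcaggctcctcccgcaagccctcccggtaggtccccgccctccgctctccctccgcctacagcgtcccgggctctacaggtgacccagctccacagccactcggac
Scnn1g: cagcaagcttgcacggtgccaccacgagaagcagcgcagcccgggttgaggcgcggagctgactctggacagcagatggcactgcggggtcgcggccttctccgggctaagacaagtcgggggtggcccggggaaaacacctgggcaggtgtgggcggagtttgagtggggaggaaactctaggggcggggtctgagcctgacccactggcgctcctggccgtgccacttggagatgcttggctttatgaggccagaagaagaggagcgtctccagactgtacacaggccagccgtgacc
TATATA occurred in the Slc34a2 region at 29 and 27 bases before the start, as an overlapping pair, and TATAAA in the Slc20a1 region at 1 base before it. Scnn1b and Scnn1g held neither. TATAAA was present in 8.32% and TATATA in 5.67% of the 32851 RefSeq start regions of this length, and these letters were chosen after the sequences had been seen. GC content was 68.7% for Slc34a2, 73.0% for Slc20a1, 61.7% for Scnn1b and 64.7% for Scnn1g, against a median of 52.7% over all start regions.

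Of the 10 genes, 7 had start regions in the RefSeq table, 8 regions in all because Slc20a1 had 2. None of the 8 held the STAT5 palindrome TTCNNNGAA, the nuclear factor I palindrome, TTGGC and GCCAA with 5 bases between them, or the nuclear factor I single site TTGGCA on either strand. Over all 32851 start regions these were present in 8.30%, 0.0365% and 14.1%. The single site shares its first 5 letters with the palindrome. The search says only that these letters were not in these windows.

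The phosphate cotransporter genes Slc34a2 and Slc20a1 were lower in the Nfib-null column, and the sodium channel subunit genes Scnn1a and Scnn1b were higher. Of the 10 genes, 7 passed the minimum mean of 1 RPKM, and each of those 7 was also above 1 RPKM in both columns. Among the 7, 2 were at least 2-fold lower, against 5.97% of the 12511 genes that passed, and 2 were at least 2-fold higher, against 6.95%. At 4-fold, 1 was lower, against 1.23%, and 0 were higher, against 0.727%. The other 3, Slc20a2, Slc12a2 and Scnn1g, lay within 2-fold. The median difference of the 7 was 0.20, beside a median of 0 over all genes that passed. The members were chosen with earlier results of these data known, so these shares and medians are descriptions only.

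**Figure D1:**
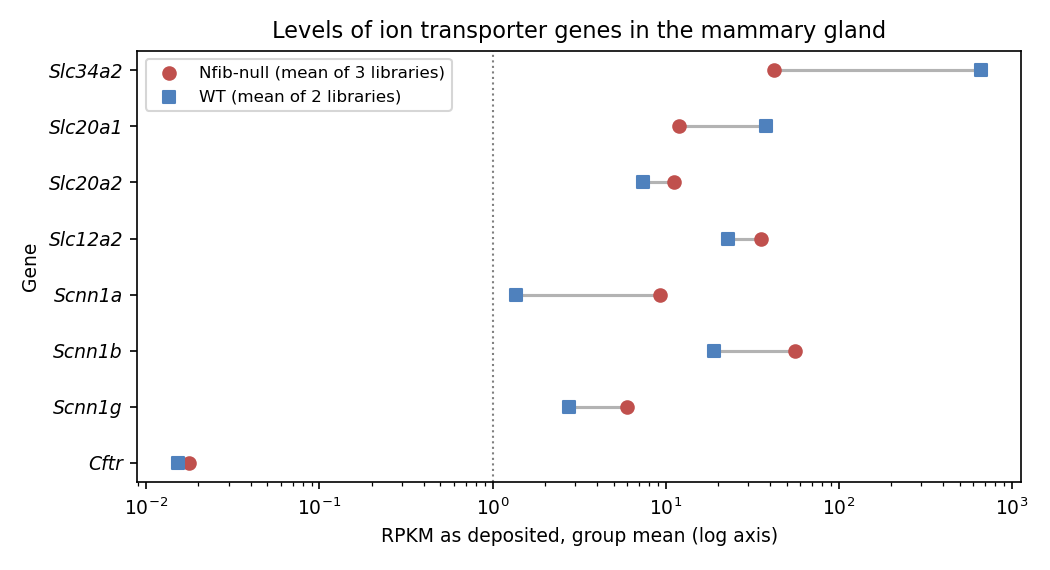
Group means of 8 transporter genes in RPKM as deposited, on a log axis, with circles for Nfib-null (3 libraries) and squares for WT (2 libraries), a line joining the values of a gene and a dotted line at 1 RPKM. Slc34a2 and Slc20a1 lie to the left in Nfib-null, the 3 ENaC subunits, Slc12a2 and Slc20a2 lie to the right, and Cftr lies below 0.02 RPKM in both columns. The values drawn still hold the median log2 ratio of 0.41 that the scaling took out. Slc34a1 and Slc34a3, listed at 0, are not drawn, and no error can be shown for a group mean.

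Slc34a2 encodes NaPi-IIb, the apical phosphate cotransporter known from lung, intestine and the lactating mammary gland. It stood at 42.1 RPKM in Nfib-null glands and 661 RPKM in WT glands, a log2 difference of −4.35. It was the 68th most abundant of 22609 genes in the WT column and the 1612th in the Nfib-null column. Only 3 of the 12511 genes that passed the minimum had a lower difference. Over the 8 other ways of processing the values its difference stayed between −4.79 and −3.94, at least 4-fold lower in each. At the estimated depth, about 14566 reads lay behind the Nfib-null value and about 89454 behind the WT value. Counting error would then be small for both, as far as that depth estimate holds.

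The related genes Slc34a1 and Slc34a3, which encode the NaPi-IIa and NaPi-IIc cotransporters of the kidney proximal tubule, were listed at 0 in both columns. So were 4088 genes of the table, while 0 of 20 housekeeping genes examined were at 0 in either column. At the estimated depth, 3 reads in the principal transcript would give 0.00909 RPKM in Nfib-null and 0.0232 RPKM in WT for Slc34a1. For Slc34a3 they would give 0.0166 RPKM in Nfib-null and 0.0424 RPKM in WT. No SLC34 gene other than Slc34a2 was thus detectable at this depth.

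Slc20a1 encodes PiT-1, a widely expressed phosphate transporter that is also a receptor for retroviruses. It stood at 12.0 RPKM in Nfib-null glands and 38.2 RPKM in WT glands, a log2 difference of −1.99, just short of 4-fold. It was lower by at least 2-fold in all 8 alternatives, with a range of −2.41 to −1.60. Its paralogue Slc20a2, which encodes PiT-2, stood at 11.1 RPKM in Nfib-null glands and 7.38 RPKM in WT glands (log2 0.17). The direction of Slc20a2 depended on the scaling, since its difference was 0.54 with values as deposited and −0.24 with scaling to general epithelial genes. In the Nfib-null column the 2 SLC20 genes stood at nearly the same level, with a Slc20a1 to Slc20a2 ratio of 1.07, against 5.17 in the WT column. This ratio is taken within a column and is not touched by the scaling factor.

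The summed RPKM of the 5 phosphate cotransporter genes was 65.2 in the Nfib-null column and 707 in the WT column. Slc34a2 made up 64.6% of that sum in Nfib-null and 93.6% in WT. Slc20a1 made up 18.3% in Nfib-null and 5.40% in WT, and Slc20a2 made up 17.1% in Nfib-null and 1.04% in WT. Slc34a2 remained the most abundant of the 5 in both columns. Relative to Slc20a1 it stood at 3.52 in Nfib-null and 17.3 in WT, so that the 2 genes that were lower did not differ by the same factor.

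**Figure D2:**
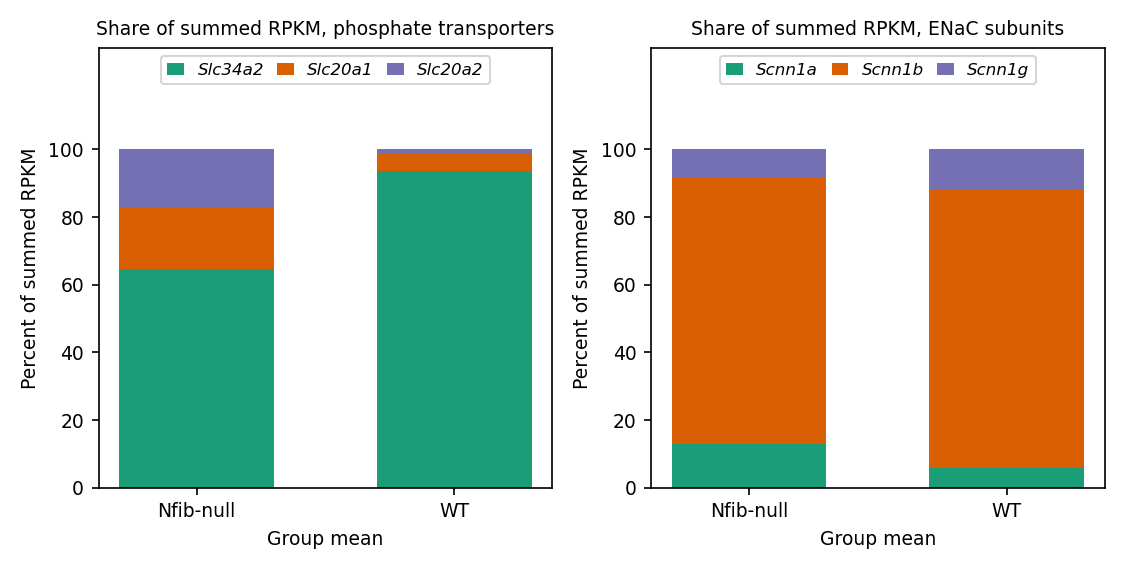
Share of each gene in the summed RPKM of the phosphate cotransporters (left) and of the ENaC subunits (right), as percent of the sum within the Nfib-null and the WT column. Slc34a2 fills 64.6% of the phosphate bar in Nfib-null and 93.6% in WT, while Scnn1b fills 78.6% of the ENaC bar in Nfib-null and 82.2% in WT.

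The ENaC channel is built from the alpha subunit (Scnn1a), which forms a channel on its own in expression systems, and the beta (Scnn1b) and gamma (Scnn1g) subunits, which increase its current. Scnn1a stood at 9.29 RPKM in Nfib-null glands and 1.36 RPKM in WT glands, a log2 difference of 1.82. Between the deposited values, with neither the pseudocount nor the scaling, the ratio was 6.84. Scnn1a was within 2-fold with a pseudocount of 5 RPKM (0.99), by a small margin, and at least 2-fold higher in the other 7 alternatives. At the estimated depth, about 154 reads lay behind its WT value and about 2694 behind its Nfib-null value.

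Scnn1b had 56.0 RPKM in Nfib-null glands, where it was the most abundant of the 10 genes, and 19.1 RPKM in WT glands. Its log2 difference was 1.10, and it came within 2-fold with a pseudocount of 5 RPKM (0.98) and with scaling to general epithelial genes (0.67). Scnn1g stood at 5.98 RPKM in Nfib-null glands and 2.78 RPKM in WT glands (log2 0.56), within 2-fold in every alternative in which it passed the minimum. All 3 subunits were positive in every one of those alternatives, although the limit of 2-fold was not met by Scnn1g.

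The subunits did not differ by the same factor. The Scnn1a to Scnn1g ratio was 1.55 in the Nfib-null column and 0.488 in the WT column, so that the order of the 2 less abundant subunits was opposite in the columns. Scnn1b exceeded Scnn1a by a ratio of 6.03 in Nfib-null and 14.1 in WT. In the summed RPKM of the subunits, 71.2 in Nfib-null and 23.3 in WT, Scnn1a made up 13.0% in Nfib-null and 5.83% in WT. Scnn1b made up 78.6% in Nfib-null and 82.2% in WT, and Scnn1g made up 8.39% in Nfib-null and 11.9% in WT.

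Slc12a2 encodes NKCC1, the basolateral cotransporter that loads chloride into secretory cells. It stood at 35.5 RPKM in Nfib-null glands and 23.1 RPKM in WT glands (log2 0.20), and its sign changed with scaling to general epithelial genes (−0.23). Cftr encodes the apical chloride channel that is opened by cyclic AMP signalling. It stood at 0.0176 RPKM in Nfib-null glands and 0.0152 RPKM in WT glands. At the estimated depth this corresponds to about 9 reads over the Nfib-null libraries and about 3 over the WT libraries. The WT value was close to the 0.0147 RPKM that 3 reads would give, and no fold change is given for Cftr.

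The order of the levels differed between the columns. In the Nfib-null column it was Scnn1b, Slc34a2, Slc12a2, Slc20a1, Slc20a2, Scnn1a, Scnn1g and Cftr, from high to low. In the WT column it was Slc34a2, Slc20a1, Slc12a2, Scnn1b, Slc20a2, Scnn1g, Scnn1a and Cftr. Without values per library it cannot be said which neighbours in either order differ beyond their spread. The Slc34a2 to Scnn1b ratio was 0.752 in Nfib-null and 34.5 in WT.

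**Figure D3:**
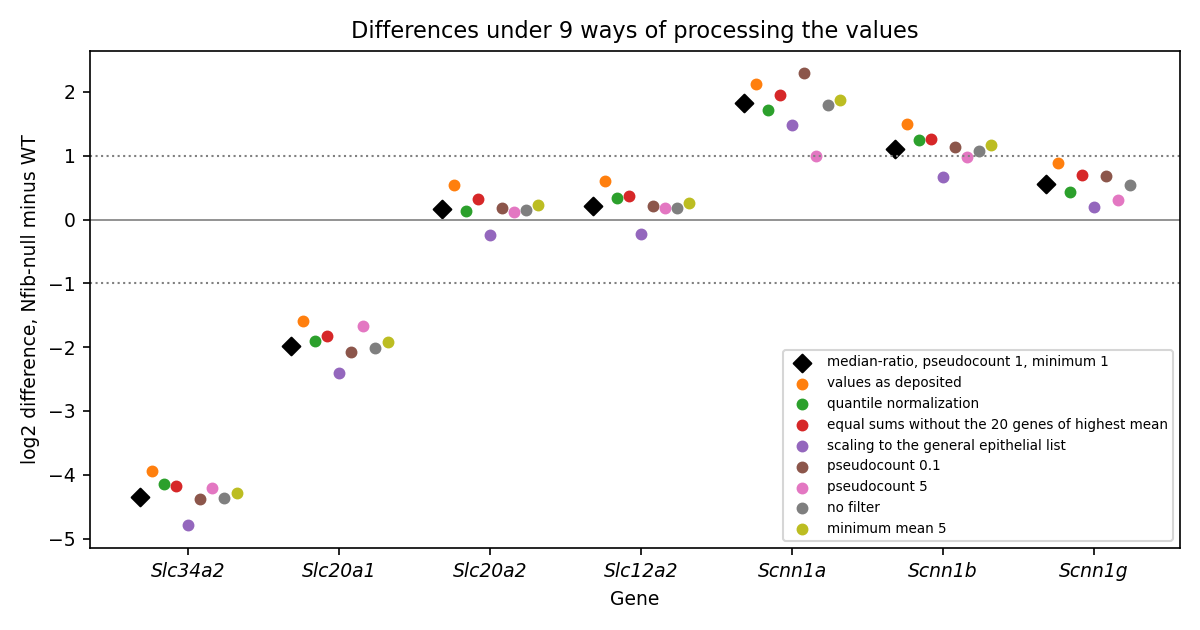
Log2 difference, Nfib-null minus WT, of the 7 genes above the minimum under 9 ways of processing the values, with diamonds for the main values, circles for the 8 alternatives and dotted lines at 2-fold. Slc34a2 and Slc20a1 lie below the lower line in each, Scnn1a lies above the upper line in all but the pseudocount of 5 RPKM, and Slc20a2 and Slc12a2 lie on both sides of 0.

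Genes with the most similar pair of values were looked up for the 3 members of largest difference, as the distance between log2(scaled RPKM + 1) values over the 2 columns. For Slc34a2 they were Cidea (46.1 RPKM in Nfib-null, 712 RPKM in WT, distance 0.17), a lipid droplet protein, Olah (35.3 RPKM in Nfib-null, 572 RPKM in WT, distance 0.32), the thioesterase of medium-chain fatty acid synthesis, and the fatty acid desaturase gene Fads2 (distance 0.75). For Slc20a1 they included Cd320 (distance 0.13) and Mpi (0.15), and for Scnn1a they were Gfpt2, Nat8l and 1700029G01Rik (0.10 to 0.14). With 2 points a gene, such likeness is a description of 2 levels and no more.

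The genes next to the members on the chromosome were examined as well. Anapc4, on the side of lower coordinates of Slc34a2, stood at 20.8 RPKM in Nfib-null and 18.7 RPKM in WT (log2 −0.24), and Sel1l3, on the other side, was below the minimum at 0.441 RPKM in Nfib-null and 0.384 RPKM in WT. Chchd5 (0.42) and Ckap2l (−0.83), on the sides of Slc20a1, were within 2-fold. Ltbr (0.32) and Tnfrsf1a (0.23), on the sides of Scnn1a, were within 2-fold too. Scnn1g and Scnn1b were each other's neighbours, with Usp31 (−0.42) and Cog7 (−0.39) beyond them. The Slc20a2 gene overlaps Smim19, which was not analysed here, and the sources used here do not say whether reads were counted by strand.

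Genes that act on these transporters differed in both directions. Over all genes that passed, 6.95% were at least 2-fold higher and 5.97% lower, and the shares of the lists are to be read beside these. The list for ENaC regulation held 16 genes, among them Scnn1d, itself a channel subunit gene, which was absent from the deposited values. Of the 16, 14 passed the minimum, and 2 were higher (14.3%) and 3 lower (21.4%). Nedd4l, the ubiquitin ligase that removes ENaC from the membrane, stood at 17.6 RPKM in Nfib-null and 4.71 RPKM in WT (log2 1.34), and the membrane protein gene Stom at 30.6 RPKM in Nfib-null and 10.9 RPKM in WT (1.01). Lower were the kinase gene Sgk2 (0.293 RPKM in Nfib-null, 6.32 RPKM in WT, −2.72), the membrane protease gene Tmprss4 (12.1 RPKM in Nfib-null, 31.9 RPKM in WT, −1.71) and the glucocorticoid receptor gene Nr3c1 (27.5 RPKM in Nfib-null, 42.9 RPKM in WT, −1.02). Tmprss4 kept its call in all 8 alternatives and Sgk2 in the 7 in which it passed the minimum, whereas Nedd4l lost it in 2, Stom in 3 and Nr3c1 in 5. The kinase Sgk1 and the channel-activating protease Prss8 lay within 2-fold, with −0.67 and −0.56. The median of the list was −0.23.

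Among the relatives and kinases of the cation-chloride cotransporters, 9 of 14 genes passed, with a median of 0.52. Of these, 1 was higher (11.1%) and 0 were lower. The higher gene was the kinase gene Wnk2 (7.93 RPKM in Nfib-null, 1.62 RPKM in WT, 1.46), which came within 2-fold with a pseudocount of 5 RPKM. Stk39, the kinase that phosphorylates NKCC1, stood at 34.4 RPKM in Nfib-null and 28.4 RPKM in WT (−0.13).

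The sodium pump sets the gradient that the cotransporters use, and potassium channels recycle the potassium it brings in. Of the 14 genes of that list that passed, 4 were higher and 4 lower (28.6% each). The higher genes included Atp1b1, a beta subunit gene of the pump (55.5 RPKM in Nfib-null, 7.71 RPKM in WT, 2.31), and Fxyd1 (1.82) and Fxyd4 (1.55), which encode FXYD proteins that bind the pump. Fxyd4 (3.08 RPKM in Nfib-null, 0.217 RPKM in WT) passed the minimum only through the Nfib-null column and was within 2-fold with a pseudocount of 5 RPKM. All 4 lower genes encode potassium channels, while the potassium channel genes Kcnq1 (−0.21) and Kcnj15 (0.13) of the list lay within 2-fold. Kcnk6 stood at 10.6 RPKM in Nfib-null and 101 RPKM in WT (−3.52), Kcnk1 at 28.6 RPKM in Nfib-null and 113 RPKM in WT (−2.35), Kcnk5 at 31.6 RPKM in Nfib-null and 78.0 RPKM in WT (−1.68) and the calcium-activated channel gene Kcnn4 at 46.5 RPKM in Nfib-null and 87.6 RPKM in WT (−1.30). Kcnn4 came within 2-fold with values as deposited.

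Of 26 other chloride and bicarbonate transport genes, 19 passed, 3 were higher and 3 lower (15.8% each), with a median of 0.30. Clic6 (29.6 RPKM in Nfib-null, 3.45 RPKM in WT, 2.42), Clca1 (1.63) and Clca2 (1.11) were higher. Clca1 and Clca2 are close copies in the mouse, so that reads may have been split between them and both values are uncertain. The sulfate transporter gene Slc26a2 (5.88 RPKM in Nfib-null, 16.0 RPKM in WT, −1.68) and the intracellular chloride exchanger genes Clcn3 (−1.38) and Clcn5 (−1.21) were lower, and Clcn3 and Clcn5 came within 2-fold with values as deposited. Clca2 did so with scaling to general epithelial genes (0.67) and Clcn5 also with a pseudocount of 5 RPKM (−0.48). The calcium-activated chloride channel gene Ano1 stood at 169 RPKM in Nfib-null and 154 RPKM in WT (−0.27), far above Cftr in both columns.

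Among scaffolds and trafficking genes of CFTR and the NaPi cotransporters, 15 of 16 passed, with a median of −0.01. Of these, 1 was higher (6.67%) and 2 lower (13.3%), against 6.95% and 5.97% of all genes that passed. The share higher was thus near that of all genes. Adcy6, an adenylyl cyclase gene, stood at 28.6 RPKM in Nfib-null and 9.98 RPKM in WT (1.04). Slc9a3r1, the PDZ scaffold NHERF1 that binds CFTR and NaPi cotransporters, stood at 42.7 RPKM in Nfib-null and 68.0 RPKM in WT (−1.06), and the sodium-proton exchanger gene Slc9a2 at 1.57 RPKM in Nfib-null and 4.55 RPKM in WT (−1.40). Slc9a3r1 lost its call in 5 of 8 alternatives, values as deposited among them. Adcy6 lost it with scaling to general epithelial genes (0.62) and with a pseudocount of 5 RPKM, and Slc9a2 with that pseudocount (−0.69).

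Of 23 genes of phosphate handling and its hormones, 15 passed, 3 were higher and 3 lower, with a median of −0.12. Pthlh, the parathyroid hormone-related protein that the lactating gland secretes, stood at 1.65 RPKM in Nfib-null and 22.6 RPKM in WT (−3.47). Fam20c, the kinase that phosphorylates caseins and other secreted proteins, stood at 43.2 RPKM in Nfib-null and 144 RPKM in WT (−2.12), and stanniocalcin-2 (Stc2) at 5.59 RPKM in Nfib-null and 12.8 RPKM in WT (−1.43). These 3 were lower in every alternative. Higher were the fibroblast growth factor receptor gene Fgfr1 (42.3 RPKM in Nfib-null, 11.3 RPKM in WT, 1.43), the pyrophosphate transporter gene Ank (1.38) and the vitamin D 24-hydroxylase gene Cyp24a1 (1.07). None of the 3 met 2-fold with scaling to general epithelial genes. Cyp24a1 (2.16 RPKM in Nfib-null, 0.322 RPKM in WT) passed the minimum only through the Nfib-null column. It also came within 2-fold with quantile normalization, and both Cyp24a1 and Ank did so with a pseudocount of 5 RPKM.

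**Figure D4:**
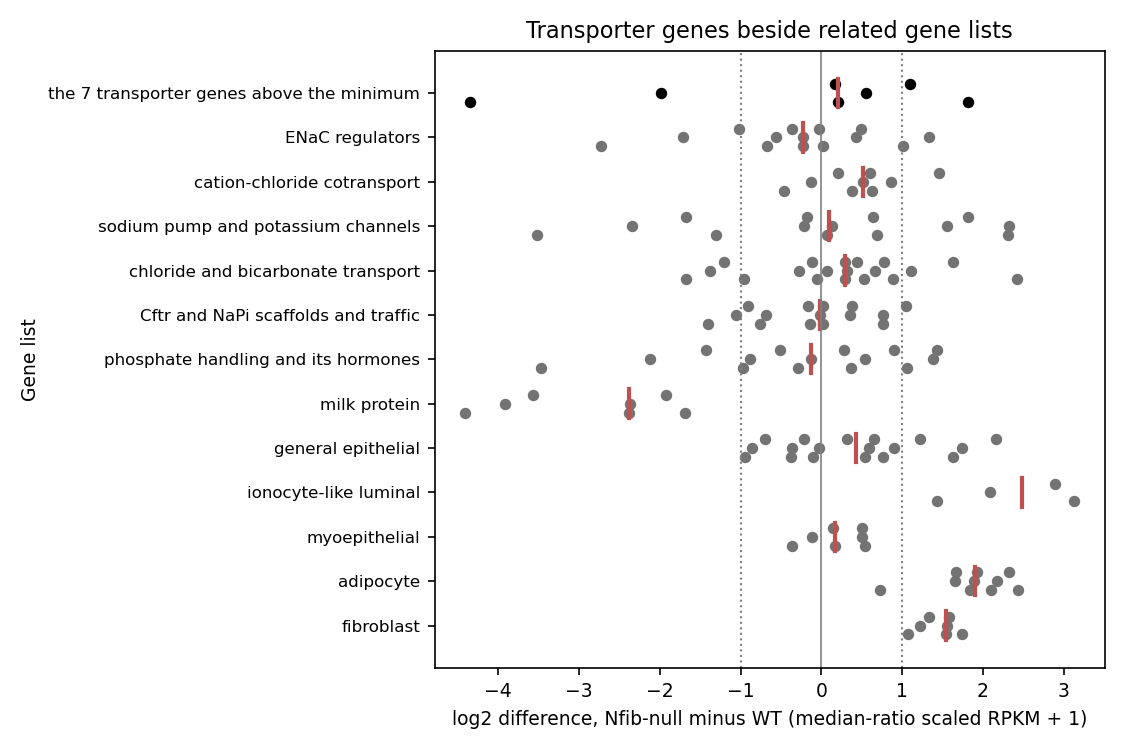
Log2 difference, Nfib-null minus WT, of each gene above the minimum in the transporter set and in 12 gene lists, with a red bar at the median and dotted lines at 2-fold. The transporter genes spread from −4.35 to 1.82 around a median of 0.20, and Slc34a2 lies within the span of the milk protein genes.

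Markers of the cells of the gland moved between the columns as well. Their counts stand beside 6.95% higher and 5.97% lower over all genes that passed. The 7 milk protein genes were all lower after median-ratio scaling, with a median of −2.38 and a summed level of 135818 RPKM in Nfib-null and 482681 RPKM in WT. With quantile normalization 2 of them, Csn1s2b and Lalba, were lower, the median was 0 and Csn1s1 turned to 0.75, whereas all 7 were lower in the other 7 alternatives. Quantile normalization gives the same value to the same rank. Csn2, Csn3 and Csn1s2a, of equal rank in both columns, thus came to 0 whatever their levels, so it cannot show a difference for them. Of 18 general epithelial genes 4 were higher and 0 lower (median 0.43), with single genes between 13.3 and 467 RPKM in Nfib-null and between 5.38 and 194 RPKM in WT. All 4 tested genes of the ionocyte-like luminal list were higher (median 2.49), with Foxi1 at 38.4 RPKM in Nfib-null and 6.14 RPKM in WT. Of the 4, Atp6v0d2 (2.43 RPKM in Nfib-null, 0.136 RPKM in WT) passed the minimum only through the Nfib-null column, which favoured its call. The untested gene of the list, Atp6v1g3, was listed at 0 in Nfib-null and at 0.0149 RPKM in WT. Of 10 adipocyte genes 9 were higher (median 1.91), and of 7 fibroblast genes 7 were (median 1.54), of which 4 were with scaling to general epithelial genes and 6 with a pseudocount of 5 RPKM. That pseudocount also left 3 of the 4 ionocyte-like luminal genes higher. With scaling to their own list, 3 of the general epithelial genes were higher and 3 lower. Of 7 myoepithelial genes 0 were higher and 0 lower (median 0.16). The part of these cell types in the differences of the transporter genes was not tested.

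Set against the luminal keratin gene Krt8 within each column, Slc34a2 stood at a ratio of 0.125 in Nfib-null and 3.95 in WT, and Slc20a1 at 0.0355 in Nfib-null and 0.228 in WT. Scnn1a stood at 0.0276 of Krt8 in Nfib-null and 0.00811 in WT, Scnn1b at 0.166 in Nfib-null and 0.114 in WT, and Slc12a2 at 0.105 in Nfib-null and 0.138 in WT. Relative to this epithelial gene, Slc34a2 and Slc20a1 were thus further apart between the columns than on the scaled values, and Scnn1b was closer. This depends on the gene chosen, since Krt8 (log2 0.60) is 1 of 18 general epithelial genes that ranged from −0.94 (Ap1m2) to 2.16 (Cldn4). Against a gene with a negative difference, Slc34a2 and Slc20a1 would be closer and Scnn1b further apart. For Slc34a2 against milk protein genes, the log2 change of the ratio was −2.47 to Csn2, −0.47 to Wap and −0.82 to Lalba. Ratios to the other milk protein genes were not taken. Their log2 differences ran from −4.40 (Csn1s2b) to −1.69 (Csn1s2a), beside −4.35 for Slc34a2.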

How the data were processed

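Poly(A) RNA of whole mammary glands was made into TruSeq libraries and sequenced on an Illumina HiSeq instrument, per the labels' protocols. CASAVA, TopHat and build mm9 are named without versions per the submitters' processing notes. The counting tool and annotation are not stated in those sources. The authors deposited RPKM values, per the file headers, as 1 group mean per gene for 2 columns. No value per library was analysed here, so the fixed tests on libraries, which need such values, could not be run.

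Genes averaging 1 RPKM or more, weighted by 3 and 2 libraries, were kept (12511 of 22609). A gene could thus pass through 1 column alone, which favoured a call. Of the named genes called, Sgk2, Clcn5, Fxyd4, Cyp24a1 and Atp6v0d2 passed in this way. Columns were divided by median-ratio factors of 1.15 (Nfib-null) and 0.867 (WT), and differences were taken of log2(RPKM + 1). The calculation was run on simulated data with a known column factor and as many genes raised as lowered. That run checks the arithmetic only, and not the choice of scaling for these columns. Depth was estimated by taking the smallest values of genes with a single transcript in GENCODE M21 as single reads, with as many steps as libraries. In the WT column Wap and Glycam1 hold the same value, as a rank-based normalization could give, and none of the members is tied. Such a step was not tested, would leave WT values approximate and would make the depth estimate wrong. Reads per gene used the length of the principal transcript, and floors of 3 reads cover counting error only. Python 3.11.15, numpy 2.4.6 and pandas 2.3.3 were used. The members, gene lists and limits were chosen with earlier results of these data known. Named genes were all members, the genes of each list past 2-fold (up to 4 a direction), those most like the 3 members of largest difference, and neighbours. Some genes that the rule covers are not reported here. Other genes of the lists were named after their values had been seen.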

Additional observations from a re-analysis of the deposited data

How the results depend on the processing

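No paired analysis was possible because the columns hold group means, and for the same reason no library could be left out. The 10 alternatives were other scalings, pseudocounts, minimum values and fold limits. The number of members higher, 2, was 1 with scaling to the general epithelial list (without Scnn1b, 0.67), 0 with a pseudocount of 5 RPKM (Scnn1a 0.99, Scnn1b 0.98) and 0 with a limit of 4-fold. The number lower, 2, was 1 with a limit of 4-fold, which left Slc34a2. The median of the members, 0.20, was −0.23 with scaling to the general epithelial list, where the median of all genes was shifted by −0.39. That median was shifted by 0.35 with values as deposited and by 0.15 with equal sums when the 20 most abundant genes are left out, beside member medians of 0.60 and 0.37. Among all genes, 1800 were higher and 369 lower with values as deposited, 1173 and 548 with equal sums, 363 and 1786 with epithelial scaling, and 869 and 747 with median-ratio scaling. With a pseudocount of 5 RPKM they were 346 and 444, with a limit of 1.5-fold 2145 and 1833, and with 4-fold 91 and 154. The share of Slc34a2 among phosphate cotransporters was 65.9% in Nfib-null and 93.4% in WT after quantile normalization, and that of Scnn1b among ENaC subunits 79.9% in Nfib-null and 80.5% in WT. Depth limits Cftr, Slc34a1 and Slc34a3, which no setting could resolve.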
